A study of Homo sapiens with 12 samples.

Results

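The interaction of AG-120 with the Nutlin response is the difference, gene by gene, between the log2 response to Nutlin in cells kept in AG-120 and the log2 response to Nutlin in cells kept in vehicle. It was computed as (AG120_Nutlin minus AG120) minus (vehicle_Nutlin minus vehicle) from raw read counts of all 12 of the 12 libraries, and it was tested for 15691 of the 55773 gene entries. A value below 0 means that the level after Nutlin, relative to the level before it, was lower in AG-120 cells than in vehicle cells. The samples were RBE cells, an established human cholangiocarcinoma line, sequenced as poly(A) RNA in 4 groups of 3 libraries. The vehicle group, titled DMSO DMSO, had 22 days of DMSO and then DMSO in place of Nutlin. The vehicle_Nutlin group had the same 22 days followed by 72 hours of 5 µM Nutlin. The AG120 group, titled AG-120 DMSO, had 22 days of 5 µM AG-120 and then DMSO in place of Nutlin. The AG120_Nutlin group had AG-120 followed by the same Nutlin treatment. All groups share the same cell line, and each agent was used at 1 dose and 1 time. The labels do not say whether the replicates were separate cultures, so every p-value here rests on a spread between samples that may be technical.

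AG-120 (ivosidenib) inhibits mutant IDH1, which converts 2-oxoglutarate to 2-hydroxyglutarate (2-HG). In enzymes that use 2-oxoglutarate, among them DNA and histone demethylases, 2-HG competes with 2-oxoglutarate. Nutlin keeps MDM2 from binding p53, so that p53 accumulates and switches on genes for cell cycle arrest, apoptosis, DNA repair and metabolism. The interaction addresses the study's question of whether 2-HG changes the expression that p53 directs, since it asks whether the response to Nutlin depends on AG-120. Neither 2-HG nor IDH1 activity was measured in these files.

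The libraries held 16840161 to 27499433 counts (median 19221201). The biliary keratin genes KRT7, KRT8 and KRT19 and the biliary regulator SOX9 were expressed in every group. Of 34 hepatocyte markers 18 passed the filter on low counts; SERPINA1 had group means of 126 to 314 CPM before TMM scaling and HNF4A of 4.21 to 20.3, while ALB and APOA1 were at or near 0. Of 12 fibroblast markers 5 passed it, among them ACTA2 at 7.21 to 44.6 CPM and COL1A1 at 0.935 to 21.8, while DCN, LUM and POSTN held 0 counts. The groups differed in how closely their replicates lay together. The median SD over genes, on the log2 scale, was 0.29 in vehicle_Nutlin, 0.183 in AG120, 0.102 in vehicle and 0.0924 in AG120_Nutlin. The share of genes that lay more than 2-fold from the rest of their group was 7.58% to 15% in the vehicle_Nutlin libraries. It was 1.77% to 4.64% in the others, with the highest value in AG120 replicate 1. The mitochondrial share of counts was 1.71% in vehicle_Nutlin replicate 3 against 3.2% and 3.45% in the other vehicle_Nutlin libraries and 4.11% to 4.42% in AG120_Nutlin. RNAs that carry no poly(A) tail summed to 669 CPM in vehicle_Nutlin replicate 2 and to 48.2 to 161 CPM elsewhere. The interaction was therefore fitted with all 12 libraries, without each library in turn, and without vehicle_Nutlin replicates 2 and 3 and AG120 replicate 1 together. That last fit leaves 1 vehicle_Nutlin library, which is assumed to vary like the other groups.

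The test called few genes, and nearly all of these were lower in AG-120 cells. At an adjusted p of at most 0.05 in edgeR's quasi-likelihood test, 57 genes were called (0.363% of the genes tested), 52 of them lower (0.331%) and 5 higher (0.0319%). Of these, 32 of the lower and 2 of the higher genes differed at least 2-fold. At an unadjusted p under 0.05 the counts were 1146 lower (7.3%) and 584 higher (3.72%). The median interaction over all tested genes was -0.01. For 9484 genes (60.4%) the 95% interval of the interaction lay within 2-fold in either direction, so for the remaining genes a difference of that size was not bounded at this depth and number of libraries. The median standard error was 0.245 on the log2 scale, and a gene that was not called may still differ, above all by small amounts.

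**Figure D1:**
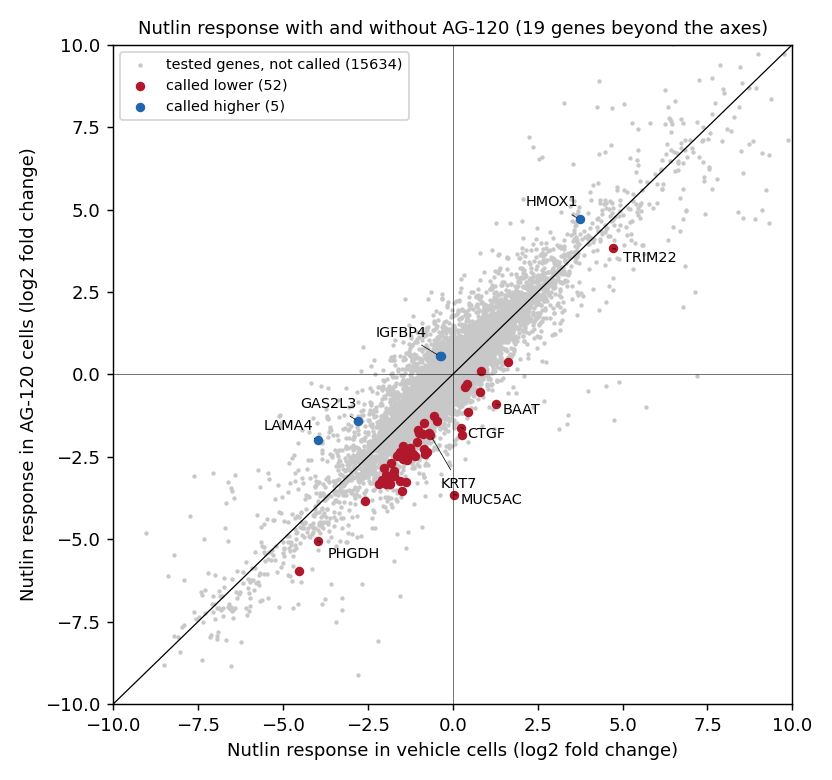
Log2 fold change after Nutlin in AG-120 cells (y axis) against that in vehicle cells (x axis) for each tested gene, with the line of equality; red points are the 52 genes called lower in the interaction and blue points the 5 called higher. Most red points sit in the lower left, where both responses are negative and the one in AG-120 cells is more so.

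The 52 lower genes fell into a few forms. In 41 of them the Nutlin response was a called fall in both pretreatments that was larger in AG-120 cells, as for the cytokine gene TGFB2. CTGF, MUC5AC and SLC16A12 had a called fall in AG-120 cells and no called change in vehicle cells. BAAT, CPA4, KCNJ16, MFSD3 and RND3 were called higher after Nutlin in vehicle cells and lower after Nutlin in AG-120 cells. PADI3 and TRIM22 rose in both with the larger rise in vehicle cells. The 4 simple effects share libraries with the interaction, so these forms describe it and do not support it.

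The same 52 genes can be read by the effect of AG-120. For 44 of them AG-120 cells were called lower than vehicle cells under Nutlin, against 1.93% of all tested genes, and in all 44 this change was larger than the AG-120 change without Nutlin. The libraries of AG120_Nutlin and vehicle_Nutlin did not overlap for 50 of the 52, against 28.3% of all tested genes. The other 8 genes included BAAT, KCNJ16, MFSD3, MUC5AC, PADI3, SLC16A12 and TRIM22. In all 8 the AG-120 change without Nutlin was the larger one, and it was a called rise for BAAT, KCNJ16, MUC5AC and TRIM22. Of all 52, only these 4 had a called AG-120 effect without Nutlin. The AG120 and vehicle libraries did not overlap for 38 of the 52, against 21.8% of all tested genes. Over the whole table AG-120 without Nutlin gave 8 called rises (0.051%) and 0 called falls, with 4206 and 4258 genes called higher and lower after Nutlin in vehicle cells (26.8% and 27.1%) and 4234 and 4513 in AG-120 cells (27% and 28.8%). Of the 5 genes called higher, 3 were called higher in AG-120 cells under Nutlin, against 0.433% of all tested genes.

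Several called genes are known targets of the co-activator YAP or of TGF-beta. YAP joins TEAD factors on DNA when cells are spread and their actin is under tension, and it drives genes for matrix proteins and growth factors. Of 32 tested YAP and TGF-beta targets 7 were called lower (21.9%, against 0.331% of all tested genes) and 0 higher: CTGF, CYR61, ANKRD1, AMOTL2, AJUBA, THBS1 and TGFB2. Over the whole list 14 members were above 0 and 18 below, with a median of -0.05 beside -0.01 over all genes. At an unadjusted p under 0.05, 10 of the 32 were lower and 4 higher, against 7.3% and 3.72% of all tested genes. Without the 3 libraries named above, 13 members were called lower and 3 higher, against 2.73% and 1.12% of all genes in that fit, with a median of -0.21. On leaving out 1 library, 3 (without any vehicle library or AG120_Nutlin replicate 2 or 3) to 12 members (without vehicle_Nutlin replicate 3) were called. AMOTL2 was called in 3 and AJUBA in 4 of the 12 leave-out fits.

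CTGF (hg19 chromosome 6, 132269316 to 132272513), a secreted matrix-associated protein, stood at 87.0, 87.7 and 68.4 CPM in the vehicle libraries and at 102.9, 91.1 and 91 CPM in vehicle_Nutlin, in the order of the replicates. It stood at 77.6, 105.7 and 102.9 CPM in AG120 and at 31.5, 29.7 and 32.3 CPM in AG120_Nutlin. The AG120_Nutlin libraries lay below every other library, and the other groups lay close together. The interaction of CTGF was -1.85 ± 0.19 (log2, SE; edgeR adjusted p = 0.00146), and it was called in each of the 12 fits that leave out 1 library.

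ANKRD1 (chromosome 10, 92671853 to 92681033), an ankyrin repeat protein that responds to stretch, was at 74.7, 84.5 and 82.2 CPM in vehicle and at 52.7, 35.3 and 55.7 CPM in vehicle_Nutlin. It was at 101, 98.7 and 92.7 CPM in AG120 and at 21.6, 17 and 18.6 CPM in AG120_Nutlin. The 4 groups did not overlap: AG120 was highest, then vehicle, vehicle_Nutlin and AG120_Nutlin. For ANKRD1 the AG-120 effect without Nutlin was not called (edgeR adjusted p = 0.675). Its interaction was -1.61 ± 0.21 (edgeR adjusted p = 0.00596), called in all 12 leave-out fits. ANKRD2 (chromosome 10), a related ankyrin repeat gene outside the list, had an interaction of -2.05 ± 0.27 (edgeR adjusted p = 0.00503), with 2.96, 2.64 and 2.09 CPM in vehicle_Nutlin and 0.844, 0.789 and 0.647 CPM in AG120_Nutlin, the latter from 11 to 16 reads.

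The promoters of CTGF and ANKRD1 are shown because they had the most copies of the TEAD core motif GGAATG among the 40 called genes with a matched promoter. Both were picked after the matches were seen. The sequences are the 250 bases before the start of transcription in RefSeq, build GRCh38.p14, 5′ to 3′ on the strand of the gene, and the capitals mark GGAATG. Both genes lie on the minus strand, CTGF (named CCN2 in RefSeq) at chr6:131951373-131951622 and ANKRD1 at chr10:90921088-90921337.
CTGF: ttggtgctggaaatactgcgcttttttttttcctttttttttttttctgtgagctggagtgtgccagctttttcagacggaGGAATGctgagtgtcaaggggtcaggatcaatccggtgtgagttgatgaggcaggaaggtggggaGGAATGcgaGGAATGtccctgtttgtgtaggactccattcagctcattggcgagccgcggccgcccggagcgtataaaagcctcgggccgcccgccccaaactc
ANKRD1: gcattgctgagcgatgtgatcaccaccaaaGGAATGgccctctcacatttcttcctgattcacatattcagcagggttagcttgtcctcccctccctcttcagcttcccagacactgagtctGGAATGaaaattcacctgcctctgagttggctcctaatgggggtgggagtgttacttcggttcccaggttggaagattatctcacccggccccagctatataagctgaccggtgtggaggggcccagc
The copies begin 169, 104 and 95 bases before the start in CTGF and 220 and 128 bases before it in ANKRD1. RefSeq promoters were matched for 37 of the 52 lower genes and 3 of the 5 higher genes. GGAATG, searched on both strands, was present in 6 of the 37 (16.2%), against 11.9% of the 27305 promoters in the RefSeq table. It was present at least 2 times in 2 of the 37 (5.41%, against 0.963%) and at least 3 times in 1, CTGF, against 0.0952% of all promoters. These 2 are the promoters of CTGF and ANKRD1, picked after the matches were seen. The shares at 2 and 3 copies therefore describe the picked genes and support nothing further. Of the other called YAP and TGF-beta targets, TGFB2 and THBS1 had 1 copy each and AMOTL2 and AJUBA 0. No promoter was matched for CYR61. A match describes these letters and is not evidence of binding.

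TGFB2 (chromosome 1, 218519577 to 218617961), a TGF-beta ligand, was at 264, 278 and 237 CPM in vehicle and at 141, 124 and 94.4 CPM in vehicle_Nutlin. It was at 330, 331 and 294 CPM in AG120 and at 61.1, 55.5 and 55.0 CPM in AG120_Nutlin. Here too the 4 groups did not overlap, and AG120 was the highest and AG120_Nutlin the lowest. For TGFB2 too the AG-120 effect without Nutlin was not called (edgeR adjusted p = 0.597). The interaction was -1.36 ± 0.19 (edgeR adjusted p = 0.00647), called in all 12 leave-out fits. CYR61 (chromosome 1), a secreted protein of the same family as CTGF, was at 82.3, 82.9 and 86.1 CPM in vehicle_Nutlin and at 39.5, 36.1 and 34.5 CPM in AG120_Nutlin, against 266 to 376 CPM in the libraries without Nutlin. Its interaction of -1.10 ± 0.17 (edgeR adjusted p = 0.0146) was lost on leaving out any 1 of 6 libraries, namely any vehicle library, AG120 replicate 3 or AG120_Nutlin replicate 2 or 3, with an adjusted p of at most 0.0757. THBS1 (chromosome 15), which encodes thrombospondin and is also listed as a p53 target, was at 303, 254 and 198 CPM in vehicle_Nutlin and at 118, 113 and 127 CPM in AG120_Nutlin. AG120 replicate 1, one of the libraries that stood apart, was the highest of all for THBS1 at 1407 CPM, and the other libraries without Nutlin lay between 905 and 1016 CPM. Its interaction was -1.33 ± 0.23 (edgeR adjusted p = 0.029), and -1.40 without the 3 libraries. The call was lost in 8 of the 12 leave-out fits, those without any 1 vehicle or AG120_Nutlin library, vehicle_Nutlin replicate 2 or AG120 replicate 2, with an adjusted p of at most 0.121.

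**Figure D2:**
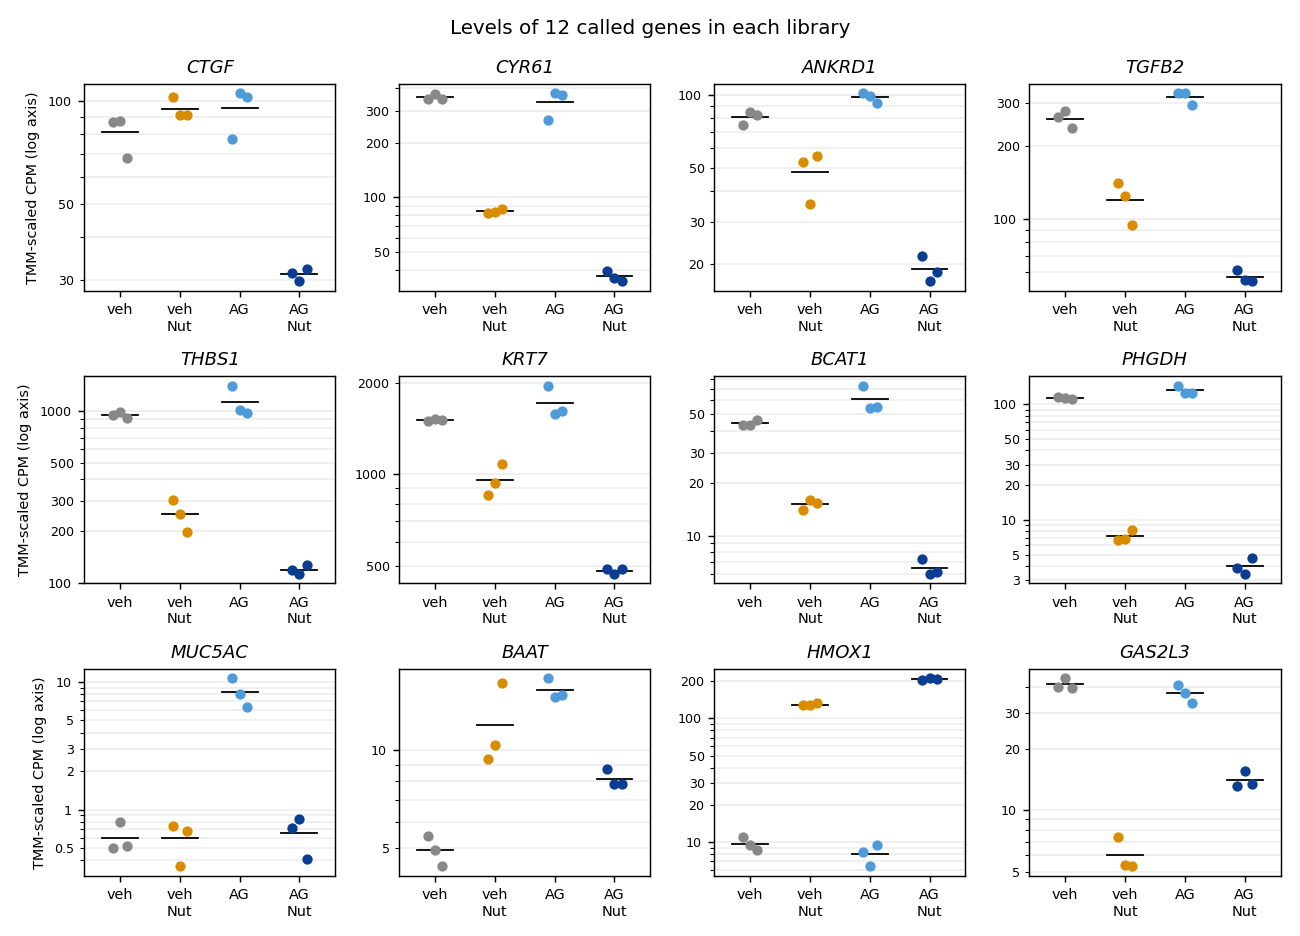
Level of 12 called genes in each of the 12 libraries, as TMM-scaled CPM on log axes that differ between panels; points are libraries in replicate order, horizontal bars are group means, and veh, AG and Nut stand for vehicle, AG-120 and Nutlin. For CTGF the 3 AG120_Nutlin libraries sit near 30 CPM, below all others, and for MUC5AC the 3 AG120 libraries sit above all others.

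Genes of the extracellular matrix and its remodelling were also among the lower calls. The mesenchymal list, whose genes mark matrix-producing and migrating cells, had 3 of 28 tested members called lower (10.7%, against 0.331% of all tested genes) and 0 higher. The called members were LOXL2, TGFB2 and THBS1. The median was -0.38, with 20 members below 0 and 8 above, up to 1.53. Without the 3 libraries 10 members were called lower, against 2.73% of all genes in that fit. On leaving out 1 library, 1 (without any vehicle or AG120_Nutlin library or AG120 replicate 2) to 9 members (without vehicle_Nutlin replicate 3) were called. MMP24 (chromosome 20, 33814457 to 33864801), a membrane-bound metalloproteinase, was at 165, 160 and 137 CPM in vehicle and at 83.2, 81.9 and 97.5 CPM in vehicle_Nutlin. It was at 221, 199 and 190 CPM in AG120 and at 35.1, 39.4 and 39.0 CPM in AG120_Nutlin. Its level was higher in every AG120 library than in any vehicle library, and lower in every AG120_Nutlin library than in any vehicle_Nutlin library. The AG-120 effect on MMP24 without Nutlin was not called (edgeR adjusted p = 0.292). The interaction of MMP24 was -1.61 ± 0.15 (edgeR adjusted p = 0.00146), called in all 12 leave-out fits.

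The lysyl oxidases cross-link collagen and elastin. LOXL4 (chromosome 10, 100007447 to 100028007) overlapped between vehicle and AG120, at 58.4 to 67.6 CPM over the 6 libraries. It was at 16.5, 17.8 and 13.4 CPM in vehicle_Nutlin and at 6.51, 6.31 and 6.47 CPM in AG120_Nutlin. Its interaction was -1.36 ± 0.16 (edgeR adjusted p = 0.00205), called in all 12 leave-out fits. LOXL2 (chromosome 8) was at 73.1, 64.1 and 55.9 CPM in vehicle_Nutlin and at 32.7, 32.1 and 31.7 CPM in AG120_Nutlin. Its interaction was -0.82 ± 0.14 (edgeR adjusted p = 0.0238). The call was lost in 8 leave-out fits, those without any 1 vehicle or AG120_Nutlin library or AG120 replicate 2 or 3, with an adjusted p of at most 0.114.

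PDGFRB (chromosome 5), the receptor for platelet-derived growth factor on mesenchymal cells, was at 3.07, 2.70 and 2.35 CPM in vehicle_Nutlin and at 1.69, 1.77 and 1.41 CPM in AG120_Nutlin. Without Nutlin it was at 15.7 to 16.9 CPM in vehicle and at 20.4 to 25.8 CPM in AG120. The interaction was -1.23 ± 0.22 (edgeR adjusted p = 0.0306), lost in 8 leave-out fits, those without any 1 vehicle or AG120_Nutlin library, vehicle_Nutlin replicate 2 or AG120 replicate 3, with an adjusted p of at most 0.11. PDGFRB was the 1 called member of 5 tested fibroblast markers. The fibroblast markers summed to 58.3 to 64.0 CPM in vehicle, 50.3 to 63.6 in vehicle_Nutlin, 53.8 to 63.2 in AG120 and 44.8 to 47.6 CPM in AG120_Nutlin, before TMM scaling. The samples were a single established line, RBE, in which the fibroblast markers DCN, LUM and POSTN held 0 counts. In bulk RNA, fewer cells that express a gene and less RNA per cell cannot be told apart. The other 4 tested fibroblast markers were not called, with interactions of 0.28 for COL1A1, -0.35 for PDGFRA, -0.45 for ACTA2 and -1.96 for THY1. The part of these markers in the PDGFRB value was not tested.

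BCAT1, PHGDH and PYCR1, enzymes of amino acid metabolism, fell further after Nutlin in AG-120 cells. BCAT1 (chromosome 12, 24964295 to 25102393), the cytosolic branched-chain aminotransferase, which converts 2-oxoglutarate to glutamate, was at 43.5, 43.2 and 46.0 CPM in vehicle and at 14.0, 16.1 and 15.4 CPM in vehicle_Nutlin. It was at 73.1, 54.6 and 55.1 CPM in AG120 and at 7.35, 6.02 and 6.17 CPM in AG120_Nutlin. The groups did not overlap, with AG120 highest and AG120_Nutlin lowest. Without Nutlin the AG-120 effect on BCAT1 was not called (edgeR adjusted p = 0.295). The interaction of BCAT1 was -1.68 ± 0.19 (edgeR adjusted p = 0.0018), called in all 12 leave-out fits, and -1.41 without the 3 libraries.

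PHGDH (chromosome 1), the first enzyme of serine synthesis, was at 112 to 115 CPM in vehicle and 126 to 145 CPM in AG120. After Nutlin it was at 6.62, 6.83 and 8.08 CPM in vehicle cells and at 3.86, 3.40 and 4.70 CPM in AG-120 cells. Its interaction was -1.08 ± 0.18 (edgeR adjusted p = 0.0191), lost in 5 leave-out fits, those without any 1 vehicle library or AG120_Nutlin replicate 1 or 2, with an adjusted p of at most 0.0961. PYCR1 (chromosome 17), the last enzyme of proline synthesis in mitochondria, was at 37.9, 43 and 50.0 CPM in vehicle_Nutlin and at 22.1, 23.7 and 23.8 CPM in AG120_Nutlin. Its interaction was -0.99 ± 0.15 (edgeR adjusted p = 0.00924), lost without vehicle replicate 3 or AG120_Nutlin replicate 1 (adjusted p of at most 0.0557). PHGDH and PYCR1 were the 2 called members of 30 tested ATF4 targets (6.67%, against 0.363% of all tested genes), which serve amino acid supply under stress; the list's median was -0.07.

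BCAT1 and PHGDH were also the 2 called members of 23 tested genes of IDH and 2-HG metabolism (8.7%, against 0.363% of all tested genes). Of these 23 genes 20 were below 0 and 3 above, with a median of -0.15. IDH1 itself, the target of AG-120, was at 168 to 173 CPM in vehicle, 95.8 to 132 in vehicle_Nutlin, 185 to 202 in AG120 and 100 to 104 CPM in AG120_Nutlin. IDH1 had an interaction of -0.30 ± 0.16 (edgeR adjusted p = 0.502), with a 95% interval of -0.64 to 0.03. IDH2, its mitochondrial relative, had an interaction of -0.15 ± 0.14 (edgeR adjusted p = 0.718; 95% interval -0.45 to 0.16). Of 39 tested 2-oxoglutarate dioxygenase genes, the enzyme family in which 2-HG competes with 2-oxoglutarate, 0 were called. The interval lay within 2-fold for 34 of the 39 (87.2%, against 60.4% of all genes). At an unadjusted p under 0.05, 2 of these were higher and 1 lower.

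AOX1 and DHCR7, enzymes outside amino acid synthesis, were called lower too. AOX1 (chromosome 2, 201450591 to 201541787), an aldehyde oxidase, was at 30.8, 31.6 and 35 CPM in vehicle and at 11.9, 10.5 and 15.3 CPM in vehicle_Nutlin. It was at 40.8, 33.7 and 35.2 CPM in AG120 and at 4.10, 3.55 and 3.76 CPM in AG120_Nutlin, below every other library. The interaction of AOX1 was -1.9 ± 0.20 (edgeR adjusted p = 0.00162), called in all 12 leave-out fits. DHCR7 (chromosome 11), the last enzyme of cholesterol synthesis, was at 66.1, 70.2 and 73.3 CPM in vehicle_Nutlin and at 46.8, 54.5 and 48.3 CPM in AG120_Nutlin, with an interaction of -0.81 ± 0.13 (edgeR adjusted p = 0.0191). That call was lost in 6 leave-out fits, those without vehicle replicate 2 or 3, AG120 replicate 2 or 3 or AG120_Nutlin replicate 1 or 3, with an adjusted p of at most 0.097. DHCR7 was the 1 called member of 24 tested cholesterol synthesis genes, of which 20 were below 0; their median interaction was -0.30. For 7 of the 24 the unadjusted p was under 0.05 with the value below 0, and for 0 with the value above 0.

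KRT7 and CLDN1, both epithelial genes, had the same form. KRT7 (chromosome 12, 52626304 to 52645970), a keratin of bile duct epithelium, was at 1496, 1520 and 1513 CPM in vehicle and at 856, 937 and 1078 CPM in vehicle_Nutlin. It was at 1961, 1583 and 1613 CPM in AG120 and at 487, 470 and 488 CPM in AG120_Nutlin. The groups did not overlap, and AG120 replicate 1, one of the libraries that stood apart, was the highest library. For KRT7 the AG-120 effect without Nutlin was not called (edgeR adjusted p = 0.715). The interaction of KRT7 was -1.18 ± 0.16 (edgeR adjusted p = 0.00647), and -0.90 without the 3 libraries. CLDN1 (chromosome 3), a tight junction claudin, was at 103, 112 and 122 CPM in vehicle_Nutlin and at 63.8, 58.8 and 64.9 CPM in AG120_Nutlin, with 172 to 220 CPM in the libraries without Nutlin. Its interaction was -1.07 ± 0.13 (edgeR adjusted p = 0.00273); both KRT7 and CLDN1 were called in all 12 leave-out fits. KRT7 and MUC5AC were the 2 called members of 23 tested biliary markers (8.7%, against 0.363% of all tested genes), whose median was -0.26, and CLDN1 was the 1 called member of 28 epithelial junction genes, with a median of -0.12. The biliary markers summed to 9244 to 10983 CPM in vehicle_Nutlin and to 8077 to 8293 CPM in AG120_Nutlin, before TMM scaling, and the part of this in the KRT7 value was not tested.

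A small group of genes differed mainly in the cells without Nutlin. MUC5AC (chromosome 11, 1151580 to 1222364), a secreted gel-forming mucin, was at 0.501, 0.792 and 0.516 CPM in vehicle and at 0.741, 0.360 and 0.684 CPM in vehicle_Nutlin. It was at 10.7, 8 and 6.38 CPM in AG120 and at 0.723, 0.838 and 0.412 CPM in AG120_Nutlin. The AG120 libraries, with 121 to 249 reads, stood above all others, which held 6 to 17 reads and overlapped. Its interaction was -3.67 ± 0.52 (edgeR adjusted p = 0.00707), and the AG-120 effect without Nutlin was a rise of 3.81 on the log2 scale (edgeR adjusted p = 0.00055).

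BAAT (chromosome 9, 104122699 to 104145801), which joins bile acids to glycine or taurine, was at 5.46, 4.92 and 4.4 CPM in vehicle and at 9.37, 10.3 and 16.0 CPM in vehicle_Nutlin. It was at 16.5, 14.5 and 14.7 CPM in AG120 and at 8.74, 7.84 and 7.88 CPM in AG120_Nutlin. Nutlin went with a higher level in vehicle cells and a lower level in AG-120 cells, and vehicle_Nutlin replicate 3, one of the libraries that stood apart, reached the AG120 range. The interaction of BAAT was -2.18 ± 0.27 (edgeR adjusted p = 0.00321), and -1.77 without the 3 libraries. BAAT was the 1 called member of 18 tested hepatocyte markers, with a median of -0.24. KCNJ16 (chromosome 17), a potassium channel subunit, had the same form, at 5.78 to 6.97 CPM in vehicle, 9.48 to 11.8 in vehicle_Nutlin, 12.7 to 13.4 in AG120 and 8.28 to 9.34 CPM in AG120_Nutlin. Its interaction was -1.33 ± 0.18 (edgeR adjusted p = 0.0069). CPA4 (chromosome 7), a carboxypeptidase, was called in opposite directions with little difference without Nutlin: 22.8 to 23.0 CPM in vehicle, 26.5 to 28.1 in AG120, 27.5 to 38.3 in vehicle_Nutlin and 11.4 to 13.7 CPM in AG120_Nutlin. Its interaction was -1.61 ± 0.18 (edgeR adjusted p = 0.00202). MUC5AC, BAAT, KCNJ16 and CPA4 were called in all 12 leave-out fits.

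The 5 genes called higher were GAS2L3, LAMA4, HMOX1, IGFBP4 and SLC6A6. GAS2L3 (chromosome 12, 100967461 to 101022064), a protein that links actin and microtubules in cell division, was at 40.1, 44.4 and 39.6 CPM in vehicle and at 7.41, 5.39 and 5.30 CPM in vehicle_Nutlin. It was at 41.2, 37.4 and 33.4 CPM in AG120 and at 13.1, 15.5 and 13.3 CPM in AG120_Nutlin. Both Nutlin groups were below the groups without Nutlin, and the AG120_Nutlin libraries lay above every vehicle_Nutlin library. Its interaction was 1.36 ± 0.20 (edgeR adjusted p = 0.00916), and of the 5 higher genes it alone was called in all 12 leave-out fits. GAS2L3 was the 1 called member of 76 tested G2/M genes, whose median interaction was -0.15, with 32 members above 0 and 44 below.

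HMOX1 (chromosome 22, 35776354 to 35790207), the heme oxygenase, listed both as a p53 target and as a target of the oxidative stress factor NRF2, was at 11, 9.45 and 8.67 CPM in vehicle and at 127, 128 and 133 CPM in vehicle_Nutlin. It was at 8.27, 6.38 and 9.44 CPM in AG120 and at 206, 212 and 208 CPM in AG120_Nutlin. Nutlin libraries of each pretreatment lay within a narrow range, and the ranges did not overlap. The interaction of HMOX1 was 0.96 ± 0.18 (edgeR adjusted p = 0.0448), and 1.01 without the 3 libraries. The call held in the fits without vehicle_Nutlin replicate 3 or AG120 replicate 3 and was lost in the other 10 leave-out fits (adjusted p of at most 0.159). HMOX1 was the 1 called member of 32 tested NRF2 targets, of which 22 were above 0; their median was 0.20.

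LAMA4 (chromosome 6), a laminin chain of basement membranes, was at 0.794, 0.240 and 0.427 CPM in vehicle_Nutlin, which was 4 to 15 reads, and at 2.77, 2.32 and 3.06 CPM in AG120_Nutlin. Without Nutlin it was at 7.01 to 8.37 CPM in vehicle and at 9.28 to 11.8 CPM in AG120. Its interaction was 1.98 ± 0.37 (edgeR adjusted p = 0.0446), and 1.37 without the 3 libraries. The call held without vehicle_Nutlin replicate 1 or 3 and was lost in the other 10 leave-out fits (adjusted p of at most 0.144). IGFBP4 (chromosome 17), a binding protein for insulin-like growth factors, was at 443 to 449 CPM in vehicle, 317 to 396 in vehicle_Nutlin, 269 to 314 in AG120 and 411 to 438 CPM in AG120_Nutlin. SLC6A6 (chromosome 3), the taurine transporter, was at 86.1 to 93.5, 60.7 to 77.0, 59.7 to 70.9 and 94.1 to 96.2 CPM in the same order. Both were called lower after Nutlin in vehicle cells and higher after Nutlin in AG-120 cells. The interaction was 0.92 ± 0.15 for IGFBP4 (edgeR adjusted p = 0.0166) and 0.87 ± 0.15 for SLC6A6 (edgeR adjusted p = 0.0238). Each of these calls was lost in 8 leave-out fits, those without any 1 vehicle or AG120_Nutlin library or AG120 replicate 2 or 3, with an adjusted p of at most 0.0753 for IGFBP4 and 0.109 for SLC6A6.

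Of 150 tested p53 targets 131 had a called rise in vehicle cells, 127 in AG-120 cells and 126 in both, and the median responses were 2.13 and 2.04 on the log2 scale. In the interaction 1 target was called higher (HMOX1) and 2 lower (TRIM22 and THBS1), which is 2% of the targets beside 0.363% of all tested genes. THBS1 fell after Nutlin in both pretreatments, with log2 responses of -1.91 in vehicle cells and -3.24 in AG-120 cells. The median interaction of the 150 targets was -0.01, as over all genes, with 74 targets above 0 and 76 below. The 95% interval lay within 2-fold for 119 of the 150 targets (79.3%), against 60.4% of all genes. The median absolute interaction was 0.171 for the targets and 0.247 over all genes, and the median standard error was also smaller for the targets, 0.189 against 0.245. Without the 3 libraries 4 targets were called higher and 9 lower, beside 1.12% and 2.73% of all genes tested in that fit.

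CDKN1A, the gene of the arrest protein p21, was at 371 to 395 CPM in vehicle and 380 to 489 CPM in AG120. After Nutlin it was at 7840, 8092 and 9400 CPM in vehicle cells and at 10073, 10405 and 10201 CPM in AG-120 cells. The AG120_Nutlin libraries lay above the vehicle_Nutlin libraries, but AG120 replicates 2 and 3 also lay above every vehicle library, and the interaction was 0.04 ± 0.17 (edgeR adjusted p = 0.938). Its 95% interval was -0.32 to 0.41. MDM2, the ubiquitin ligase that p53 induces and Nutlin blocks, was at 2951, 2107 and 3484 CPM in vehicle_Nutlin and at 3350, 3324 and 3354 CPM in AG120_Nutlin, and these ranges overlapped. Its interaction was 0.07 ± 0.23 (edgeR adjusted p = 0.929; 95% interval -0.43 to 0.57). Of the 8 p53 feedback regulators 0 were called (1 lower at an unadjusted p under 0.05), with a median of -0.03, and the interval lay within 2-fold for all 8.

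**Figure D3:**
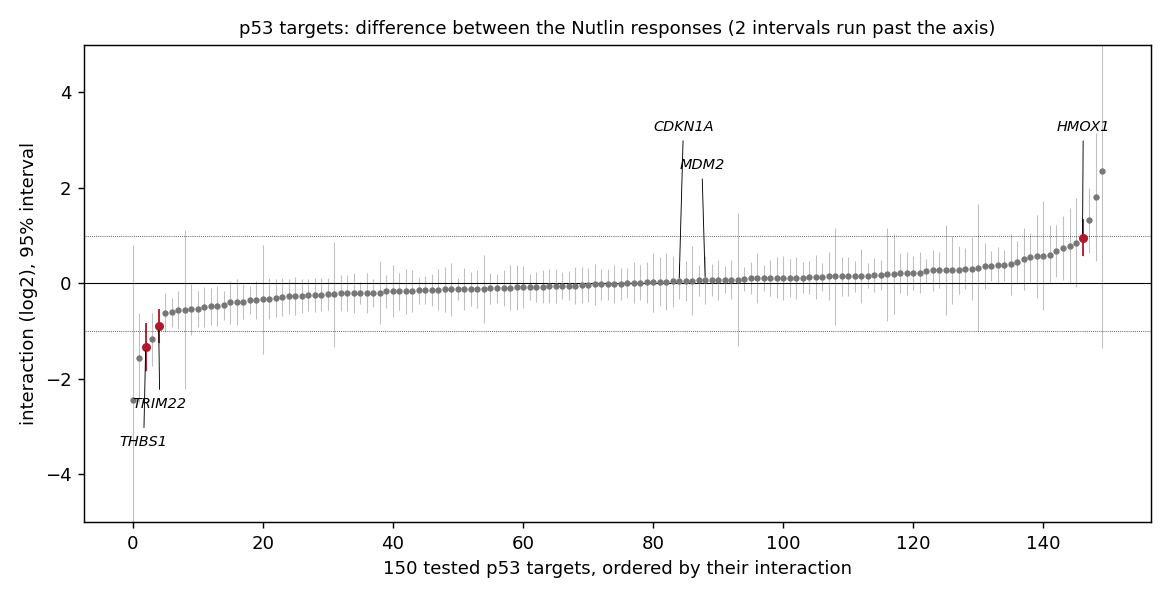
Interaction of each of the 150 tested p53 targets with its 95% interval (y axis, log2), ordered from lowest to highest; red points are the 3 called targets and dotted lines mark 2-fold in either direction. CDKN1A and MDM2 sit at 0.04 and 0.07, in the flat middle of the series.

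By function, the arrest targets had 1 of 15 called, the metabolic targets 1 of 20 and the remaining targets 1 of 75. Apoptosis targets had 0 of 23 called (median -0.02) and DNA repair targets 0 of 9 (median 0.21). At an unadjusted p under 0.05, 1 apoptosis target was higher and 4 lower, and 1 repair target was higher. TRIM22 (chromosome 11), an interferon- and p53-induced antiviral protein, was at 74.2, 81.1 and 95.2 CPM in vehicle_Nutlin and at 79.5, 85.0 and 81.6 CPM in AG120_Nutlin, which overlapped. The difference lay in the libraries without Nutlin, at 3.05 to 3.34 CPM in vehicle and 5.10 to 6.21 CPM in AG120. Its interaction was -0.89 ± 0.17 (edgeR adjusted p = 0.0446), and -0.65 without the 3 libraries. The call held without vehicle_Nutlin replicate 1 or 3 and was lost in the other 10 leave-out fits (adjusted p of at most 0.168).

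GRHL3, a transcription factor of epidermal differentiation, was among the targets closest to the threshold. It was at 32.2, 30.1 and 22.8 CPM in vehicle_Nutlin and at 37.4, 37 and 39.6 CPM in AG120_Nutlin, and at 2.30 to 2.60 CPM in vehicle and 0.814 to 1.95 CPM in AG120. AG-120 libraries lay below vehicle libraries without Nutlin and above them with it. The interaction of GRHL3 was 1.32 ± 0.31 (edgeR adjusted p = 0.119), which did not pass the threshold. It passed with DESeq2 on the same 12 libraries (adjusted p = 0.00431), and in edgeR without the 3 libraries (0.87, adjusted p = 0.0467), without vehicle_Nutlin replicate 3 (adjusted p = 0.0422) and without AG120 replicate 3 (adjusted p = 0.0318). Over all alternatives the adjusted p of GRHL3 ran from 0.00155 to 0.31.

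Because the interaction is a difference of log2 changes, it can differ from the difference in CPM. CDKN1A gained 8064 CPM after Nutlin in vehicle cells and 9781 CPM in AG-120 cells, a difference of 1717 CPM with a standard error of 494 from the group SDs. MDM2 gained 2702 and 3180 CPM, a difference of 478 with a standard error of 401. For CYR61 the losses were close, -273 CPM in vehicle cells and -300 CPM in AG-120 cells (difference -26.5, standard error 36.1). LAMA4 changed by -7.28 and -8.03 CPM, so its difference in CPM (-0.75, standard error 0.900) has the opposite sign to its log2 interaction. For CTGF the changes were 14.0 and -64.3 CPM (difference -78.3, standard error 11.7), and for KRT7 they were -552 and -1237 CPM (difference -684, standard error 137.9).

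The remaining 29 called genes fall outside the naming rule. They are named here after their values were seen, apart from 2 entries that carry clone names, and all were lower. They included regulators of the actin skeleton and of cell shape (ACTG1, TPM1, CAP2, DIAPH3, RND3, CTNNAL1, AMOTL2 and AJUBA) and matrix or secreted proteins (FSTL1, FSTL3, FBLN1 and MATN2). Others were membrane proteins (OXTR, MCAM, EFNB2, FZD2, GPRC5B, TNFRSF21, SPNS2, SLC16A12, MFSD3 and FIBCD1), the keratin KRT80, and PADI3, ALDH3B1, VEPH1 and MEIS3. Their interactions ran from -2.11 (SLC16A12) to -0.64 (ALDH3B1). KRT80 was at 157 to 159 CPM in vehicle_Nutlin and at 68.8 to 74.7 CPM in AG120_Nutlin, with 512 to 604 CPM in the libraries without Nutlin, and its interaction was -1.19 ± 0.12 (edgeR adjusted p = 0.00149). TPM1, a tropomyosin, was at 377 to 420 CPM in vehicle_Nutlin and at 205 to 230 CPM in AG120_Nutlin (interaction -1.01 ± 0.13, edgeR adjusted p = 0.00407). ACTG1, the cytoplasmic gamma actin gene, had an interaction of -0.87 ± 0.15 (edgeR adjusted p = 0.0321); it has close copies in the genome, so its counts are uncertain. The labels do not say whether reads were counted by strand, so a gene and an antisense partner cannot be told apart.

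Among the other gene lists, calls were few and some medians lay away from 0. Of 40 cytosolic ribosomal protein genes, which code for the ribosome's own proteins, 0 were called, but 39 were below 0, 28 of them at an unadjusted p under 0.05, with a median of -0.51. Over all genes 7.3% were lower at that level. Without the 3 libraries 23 of the 40 were called lower, against 2.73% of all genes in that fit, and the median was -0.33. Mitochondrially encoded genes had 12 of 13 above 0 with a median of 0.36 and 0 called, and at an unadjusted p under 0.05 the count was also 0. Without the 3 libraries the median of the mitochondrially encoded genes was 0.22. The lower mitochondrial share of counts in vehicle_Nutlin replicate 3 was given above, and its part in these values was not tested. Of 42 tested type I interferon genes 36 were below 0, with a median of -0.28 and 1 called (TRIM22). Replication-dependent histone genes had 16 of 17 below 0 and a median of -0.73, with 0 called and 8 lower at an unadjusted p under 0.05. Histone messages lack a poly(A) tail, and the 5 tested RNAs of the list without a tail had a median of -6.14. Without the 3 libraries the median was -0.51 for the histone genes and -0.33 for the RNAs without a tail. The part of such RNAs in the histone values was not tested. G1/S genes, which serve DNA replication, had 0 of 68 called and a median of 0.03, with 5 higher and 6 lower at an unadjusted p under 0.05. For hypoxia and glycolysis (34 tested), unfolded protein response (23), lysosome and autophagy (41) and MAPK output (35) genes 0 were called, with medians between -0.10 and 0.00. The counts in these 4 lists at an unadjusted p under 0.05 were 2, 1, 3 and 6 higher and 5, 2, 3 and 2 lower. Secreted inflammatory genes, such as cytokines, had 0 of 25 called and a median of -0.39, with 7 lower and 0 higher at an unadjusted p under 0.05. With DESeq2, which called 177 genes lower and 23 higher, 5 of the secreted inflammatory genes, 2 of the ribosomal protein genes, 2 each of the hypoxia and MAPK lists and 1 of the G1/S genes were called, and 0 of the feedback, apoptosis, repair, dioxygenase, histone, mitochondrial, unfolded protein and lysosome lists.

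**Figure D4:**
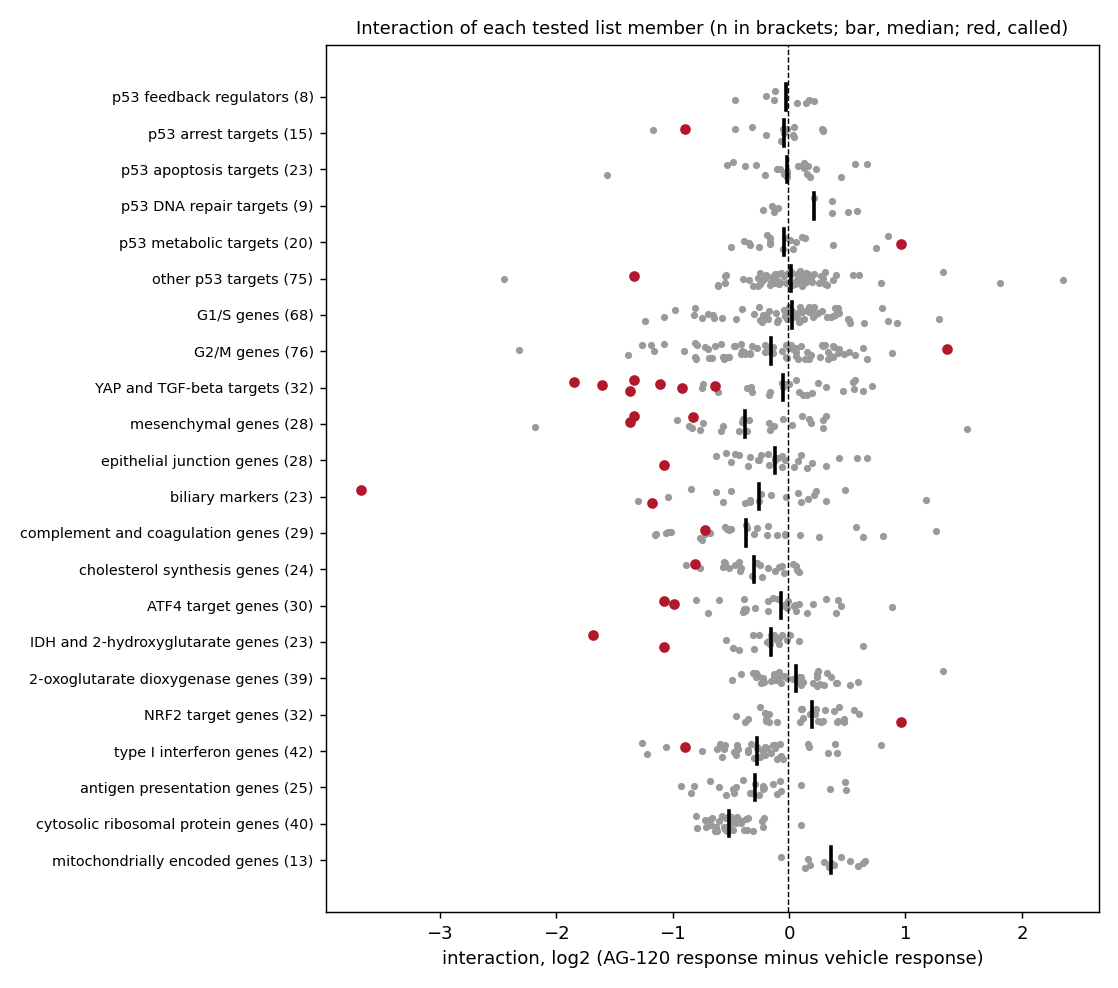
Interaction of each tested member of 22 gene lists (x axis, log2; AG-120 response minus vehicle response), with the number of members in brackets; black bars are medians and red points are called genes. The YAP and TGF-beta targets hold the most red points, 7 of 32, while the medians of the p53 lists lie between -0.05 and 0.21.

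The number of calls, and the balance of lower and higher among them, depended on which libraries were used. The sign of the 57 genes called with 12 libraries did not. Leaving out vehicle_Nutlin replicate 3 gave 207 lower and 36 higher calls, and leaving out vehicle_Nutlin replicate 1 gave 76 and 34. Leaving out any 1 vehicle library gave 22 to 27 lower calls, and leaving out any 1 AG120_Nutlin library gave 25 to 28, with 1 higher call in each. Without the 3 libraries that stood apart there were 452 lower (2.73%) and 185 higher calls (1.12%) among 16553 tested genes. All 57 genes called with 12 libraries were called there too. All 57 kept their sign in every one of the 22 alternatives, and 22 of them, 21 lower and 1 higher, were called in each of the 12 leave-out fits. Another 25 were called in fewer than 6 of those fits. All alternatives reuse the libraries that gave the calls, so kept signs and kept calls describe stability and are not separate support.

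**Figure D5:**
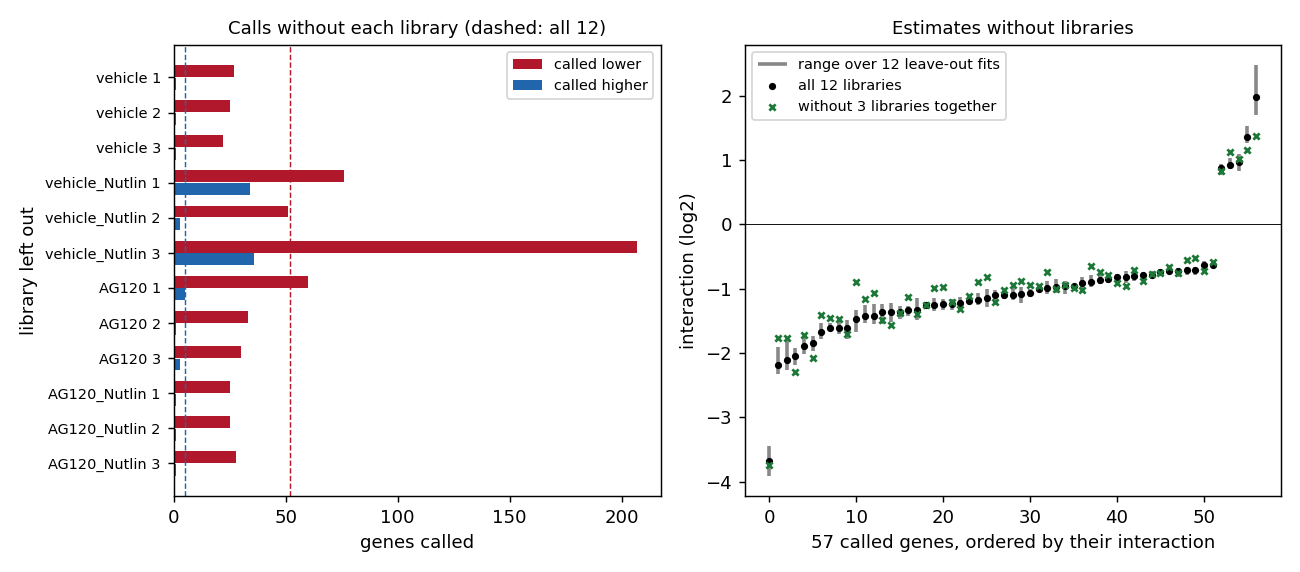
Left, genes called lower (red) and higher (blue) when the library named on the y axis is left out, with dashed lines at the 52 and 5 calls from all 12 libraries. Right, log2 interaction of the 57 called genes from all 12 libraries (black), its range over the 12 leave-out fits (grey) and its value without 3 libraries together (green crosses); no gene crosses 0.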

How the data were processed

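The deposited file gives raw read counts for each gene symbol, as whole numbers without normalization, with hg19 gene positions. Per the submitters' processing notes, Partek, STAR, HTSeq, DESeq2 and hg19 were used; roles and versions are not given in the sources used here, nor is strandedness. The deposited gene end lies 1 base past the last base and was reduced by 1. In R 4.3.3, genes were kept by edgeR's filterByExpr on the 4 groups (15691 of 29603 entries with a count), scaled by TMM and fitted with 1 quasi-likelihood model over all 12 libraries (edgeR 4.0.16, glmQLFit and glmQLFTest). Adjusted p-values are Benjamini-Hochberg values over all tested genes, and a gene was called at 0.05. Levels are TMM-scaled CPM. The fit was tested on simulated data, where it missed most small interactions. Intervals are at 95%.

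The gene lists, tests and naming rule were chosen with earlier results of these data known. The rule took up to 12 genes per direction with the largest interaction among genes called in all 12 leave-out fits (at least 5 CPM in a group), then other called genes where too few remained. It added MDM2, CDKN1A, IDH1 and IDH2, the 6 p53 targets with the smallest p, and up to 4 called members of each list. Results for a few of these genes are left out here. Alternatives were DESeq2 1.42.0, limma 3.58.1 voom with library weights, other scalings and filters, a replicate block, a transcript length offset, left-out libraries and an adjusted p of 0.01. Replicates of a group differed by more than sampling noise in every pair (chi-square per gene 2.75 to 138).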

Additional observations from a re-analysis of the deposited data

Results flagged for a closer look

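The results below are those named genes for which the difference between the Nutlin responses itself passed the test (edgeR adjusted p of at most 0.05). The estimated response to the same agent thus differed between AG-120 and vehicle cells over all 12 libraries. In some fits that leave out 1 library the calls of CYR61, THBS1, LOXL2, PDGFRB, PHGDH, PYCR1, DHCR7 and TRIM22 were lost. The same held for LAMA4, HMOX1, IGFBP4 and SLC6A6. The values are log2 interactions. Among targets of YAP and TGF-beta and related genes they were -1.85 for CTGF, -1.10 for CYR61, -1.61 for ANKRD1, -2.05 for ANKRD2, -1.36 for TGFB2 and -1.33 for THBS1. Among matrix and mesenchymal genes they were -1.61 for MMP24, -1.36 for LOXL4, -0.82 for LOXL2 and -1.23 for PDGFRB. Metabolic enzymes stood at -1.68 for BCAT1, -1.08 for PHGDH, -0.99 for PYCR1, -1.9 for AOX1 and -0.81 for DHCR7. The epithelial genes stood at -1.18 for KRT7 and -1.07 for CLDN1. Genes with a called rise in AG-120 cells without Nutlin stood at -3.67 for MUC5AC, -2.18 for BAAT, -1.33 for KCNJ16 and -0.89 for TRIM22. CPA4, with no called AG-120 effect without Nutlin, stood at -1.61. The higher values were 1.36 for GAS2L3, 1.98 for LAMA4, 0.96 for HMOX1, 0.92 for IGFBP4 and 0.87 for SLC6A6.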

How the results depend on the processing

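Counts of lower and higher calls were 52 and 5 over all 12 libraries. They were 177 and 23 with DESeq2, 358 and 75 with voom and library weights, 203 and 80 without a low-count filter, 452 and 185 without the 3 libraries, and 24 and 1 at an adjusted p of 0.01. Leaving out 1 library gave 22 to 207 lower and 1 to 36 higher. For p53 targets, 2 lower and 1 higher became 4 and 2 with DESeq2, 8 and 2 with voom, 1 and 0 with DESeq2 size factors, 1 and 1 with library totals, 3 and 2 without a filter, 9 and 4 without the 3 libraries, 0 and 0 at 0.01, and 0 to 4 and 0 to 2 on leaving out 1 library. The cause of these shifts was not tested, apart from the stricter threshold at 0.01. Of the 57 calls, DESeq2 kept 57, voom 56, DESeq2 size factors 55 and library totals 46.

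The labels do not say whether replicate numbers pair the samples. Deviations of same-numbered libraries correlated between -0.224 and 0.116, with 1 of 18 pairs above 0.1. With 3 libraries per group, such correlations cannot decide whether same-numbered samples were handled together. With the replicate number as a block there were 30 lower and 2 higher calls (p53 targets 1 and 0), and 32 and 3 with a length offset as well (p53 targets 0 and 0). In each, 31 of the 57 genes stayed called. Among the genes flagged above, DHCR7, HMOX1, IGFBP4, LAMA4, PDGFRB and TRIM22 lost their call with the block.

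Values near 0 changed sign: the interaction of CDKN1A was -0.00665 without vehicle_Nutlin replicate 1 and ran from -0.059 (without AG120 replicate 1) to 0.125 over the leave-out fits, MDM2 ran from -0.11 (without vehicle_Nutlin replicate 2) to 0.235, and IDH2 was 0.013 without the 3 libraries. Depth limits MUC5AC, LAMA4 and ANKRD2, which held under 20 reads in some libraries.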
